A study of Mus musculus with 12 samples.

Results

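The genes described are 6 transcription factors through which the circadian clock acts on other genes: Dbp, Tef and Hlf, Nfil3, and Bhlhe40 and Bhlhe41. They were chosen by name, with earlier results of these data known. Their counts beside shares of all clusters are therefore descriptions. Each is measured by the 1 transcript cluster (the set of probes the array holds for a gene) that the platform annotation pairs with its symbol and no other, so they are 6 of the 30412 clusters with exactly 1 symbol. RNA came from quadriceps of male C57BL/10 mice of the genotype utrn+/-;mdx, aged 6 weeks, which lack dystrophin through the mdx mutation and are heterozygous for loss of utrophin. There were 4 groups of 3 biological replicates, with 1 Affymetrix array each. Untreated mice ate normal chow. From 4 to 6 weeks of age the spironolactone group received 100 mg/kg per day of spironolactone and 20 mg/kg per day of lisinopril in pellets, and the eplerenone group received 200 mg/kg per day of eplerenone with the same lisinopril dose, also in pellets. The prednisolone group drank water with prednisolone at 1.5 mg/kg per day. All groups are dystrophic, and the 2 combinations share lisinopril, so no group here shows healthy muscle, lisinopril alone, an antagonist alone or pellets without drug. The time of day at which muscles were taken is not given in the sources used here.

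In cells with a running clock, the activators Clock and Arntl switch on genes through E-box sequences, among them the Per and Cry repressors that then shut the activators down. Dbp, Tef and Hlf belong to the PAR bZIP family (leucine zipper proteins with a stretch rich in proline and acidic residues). They are driven by the clock through E-boxes and switch on further genes through a sequence called the D-box, while Nfil3, a related leucine zipper protein, binds the same D-box and represses. Bhlhe40 and Bhlhe41 are basic helix-loop-helix repressors that compete with Clock and Arntl at E-boxes, and Nr1d1 and Nr1d2 repress Arntl and Nfil3 through another sequence, the ROR element. In skeletal muscle the clock is known for timing genes of fuel use. Spironolactone and eplerenone are steroidal antagonists of the mineralocorticoid receptor, lisinopril inhibits angiotensin-converting enzyme, and prednisolone is a synthetic glucocorticoid.

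Promoter sequences are shown first, because the clock and these factors act on genes through short motifs. RefSeq windows on GRCm38.p6, from 250 bases before to 50 bases after each transcription start, were at hand for 5 of the 6 genes (6 windows, as Tef has 2), with none for Bhlhe40. They were searched on both strands for the E-box CACGTG, the D-box TTANGTAA, the core of the ROR element TAGGTCA and the CRE TGACGTCA. Each window held at most 1 match, so no motif overlapped another. The stretches of 30 bases around the matches follow, read on the gene's strand with the match in capitals.
Tef, first start: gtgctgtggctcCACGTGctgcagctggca
Tef, second start: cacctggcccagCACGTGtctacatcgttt
Bhlhe41: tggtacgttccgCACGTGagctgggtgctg
Nfil3: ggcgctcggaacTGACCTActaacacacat
Hlf: cggtgcgggcccTGACGTCActcttgtcag
The E-boxes of Tef lie 127 bases before its first start (chr15:81802534-81802563, plus strand) and 138 bases before its second (chr15:81811264-81811293, plus strand). That of Bhlhe41 lies 153 bases before its start (chr6:145865556-145865585, minus strand). Nfil3 holds the ROR core on its reverse strand, 12 bases before the start, so the gene's own strand reads TGACCTA there (chr13:52981034-52981063, minus strand). Hlf holds a CRE 9 bases before its start (chr11:90390909-90390938, minus strand). Over all 32851 windows of 27025 genes, 7.15% hold this E-box, 2.32% the D-box, 2.61% the ROR core and 1.79% the CRE. No window of these genes held the D-box. The window of Dbp, the gene with the widest range below, held none of the 4 motifs. Its 250 bases before the start (chr7:45704997-45705246, plus strand) are therefore all in lower case.
Dbp: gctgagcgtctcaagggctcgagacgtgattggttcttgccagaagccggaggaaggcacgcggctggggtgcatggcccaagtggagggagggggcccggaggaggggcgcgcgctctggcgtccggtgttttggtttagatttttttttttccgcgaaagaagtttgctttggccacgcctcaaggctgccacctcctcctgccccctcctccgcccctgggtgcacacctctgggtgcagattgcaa
A match describes letters in a window, and a missing match says nothing about sites elsewhere in the gene.

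Dbp was the most variable of the 6. Values below are the deposited log2 signals, on which 1 unit is a doubling on the authors' scale. Dbp read 9.66, 8.76 and 8.96 in untreated replicates 1 to 3, 11.04, 11.15 and 10.80 with spironolactone plus lisinopril, 10.54, 10.69 and 9.81 with eplerenone plus lisinopril, and 7.80, 8.03 and 7.72 with prednisolone. No group overlapped another: both combinations were above untreated, spironolactone above eplerenone, and prednisolone below all. Over the 12 arrays Dbp spanned 3.43 log2 units, a 10.8-fold range, and its SD over them ranked 52 of 30412. In a limma F-test across the 4 groups, with Benjamini-Hochberg adjustment over all 30412 clusters and a threshold of 0.05, Dbp gave an adjusted p of 0.00198, the seventh smallest.

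Tef, its relative, moved within a narrower range. It read 8.32, 7.68 and 7.85 untreated, 8.54, 8.90 and 8.79 with spironolactone plus lisinopril, 8.66, 8.75 and 8.50 with eplerenone plus lisinopril, and 7.85, 8.16 and 7.84 with prednisolone. Every array of the 2 combinations lay above every untreated and prednisolone array, while the combinations overlapped each other, as did prednisolone and untreated. Hlf, also of the family, stood out with spironolactone plus lisinopril. It read 5.68, 5.09 and 5.16 untreated, 6.14, 6.44 and 5.91 with spironolactone plus lisinopril, 5.33, 5.48 and 5.15 with eplerenone plus lisinopril, and 5.03, 5.08 and 5.04 with prednisolone. The 3 spironolactone arrays were above the other 9. The adjusted p of the limma F-test was 0.0395 for Tef and 0.0260 for Hlf.

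Nfil3, the repressor at the D-box, had its highest values without treatment. It read 7.39, 7.31 and 7.43 untreated, 6.29, 6.56 and 6.71 with spironolactone plus lisinopril, 6.77, 6.66 and 6.59 with eplerenone plus lisinopril, and 6.73, 6.91 and 6.91 with prednisolone. The untreated arrays stood above the 9 treated ones, which spanned 6.29 to 6.91 with overlap between eplerenone and its neighbours. Its adjusted p in the limma F-test was 0.0139.

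Of the helix-loop-helix repressors, Bhlhe40 was low with prednisolone. It read 11.31, 10.58 and 11.22 untreated, 10.75, 10.96 and 11.18 with spironolactone plus lisinopril, 10.63, 10.87 and 10.97 with eplerenone plus lisinopril, and 10.24, 10.42 and 9.64 with prednisolone. The prednisolone arrays lay below the other 9, which overlapped. Bhlhe41 spanned the least, 0.91 log2 units, reading 9.87, 9.11 and 9.36 untreated, 9.74, 9.92 and 10.01 with spironolactone plus lisinopril, 9.81, 9.89 and 9.70 with eplerenone plus lisinopril, and 9.34, 9.39 and 9.32 with prednisolone. Its untreated values overlapped those of every other group. The F-test gave an adjusted p of 0.110 for Bhlhe40 and 0.160 for Bhlhe41 (limma). In all, 4 of the 6 passed, where 1.93% of all clusters did.

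**Figure D1:**
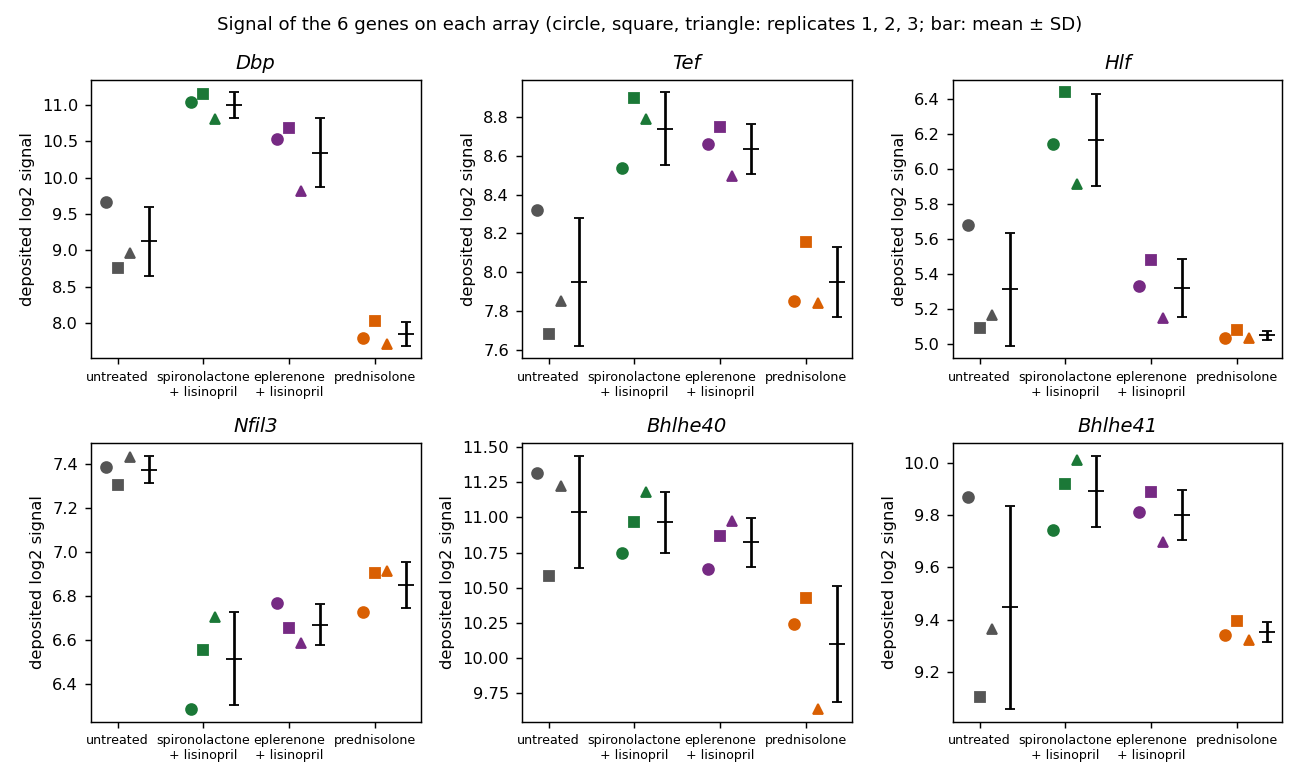
Deposited log2 signal (vertical axis, a separate scale per gene) of the 6 genes on each of the 12 arrays by group, with the group mean ± SD beside the points. Dbp is highest with spironolactone plus lisinopril (10.80 to 11.15) and lowest with prednisolone (7.72 to 8.03), and Nfil3 is highest untreated (7.31 to 7.43).

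Within groups Dbp, Tef, Hlf and Bhlhe41 varied together. With group means subtracted, their Pearson r ran from 0.68 (Hlf with Bhlhe41) to 0.90 (Tef with Bhlhe41). For Nfil3 it ran from -0.02 (with Hlf) to 0.48 (with Tef), and for Bhlhe40 from 0.21 (with Hlf) to 0.61 (with Tef). Untreated replicate 1 was the highest of its group in Dbp, Tef, Hlf, Bhlhe40 and Bhlhe41, and middle in Nfil3. Eplerenone replicate 3 was the lowest of its group in each gene but Bhlhe40, where it was the highest. The median deviation of the neutrophil marker list from its genes' means was -0.03 in untreated replicate 1, against 1.73 and 1.67 in untreated replicates 2 and 3. Per1, a clock repressor that stimuli also induce, read 10.82 in untreated replicate 1 and 8.90 and 8.81 in the others. Differences of the chosen factors that depend on untreated replicate 1 are given with and without it. Every r, and the differences of the loop genes (Per1 among them) and of the other lists, are given only with this mouse. How far those depend on it was not tested.

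Against untreated muscle, 3 of the 6 genes fell with prednisolone and none rose. Dbp fell by 1.28 ± 0.25 (log2, SE, n = 3 arrays per group here and below), from a mean of 9.13 ± 0.47 (SD) to 7.85 ± 0.16, which is 2.42-fold lower (limma, adjusted p 0.0167). Bhlhe40 fell by 0.94 ± 0.23, from 11.04 ± 0.40 to 10.10 ± 0.41, or 1.92-fold (adjusted p 0.0368). Nfil3 fell by 0.53 ± 0.11, from 7.38 ± 0.063 to 6.85 ± 0.10, or 1.44-fold (adjusted p 0.0195). In each of these 3 genes all prednisolone arrays lay below all untreated arrays. Of all clusters 6.39% passed in this comparison, 979 higher and 963 lower. Hlf differed by -0.26 ± 0.17 (adjusted p 0.41) without overlap between the groups, Bhlhe41 by -0.09 ± 0.16 (0.80), and Tef by -0.0019, with a 95% interval of -0.37 to 0.36 (0.997). The groups did not overlap in 4 of the 6 genes, against 26.7% of all clusters.

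Each of these calls was lost without certain mice. The adjusted p for Dbp was 0.0615 without prednisolone replicate 1 and 0.0529 without replicate 2. For Nfil3 it was 0.0684 without untreated replicate 3, 0.0799 without prednisolone replicate 1 and 0.0635 without prednisolone replicate 2. That for Bhlhe40 lay between 0.0505 and 0.12 without any 1 of untreated replicates 1 and 3, the 3 prednisolone replicates, eplerenone replicates 2 and 3 and spironolactone replicate 2 (limma, 3 or 2 arrays per group). With replicate number as a block it was 0.0717. In the fits without 1 of these mice, 1.5% to 8.69% of all clusters passed.

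With spironolactone plus lisinopril Dbp moved the other way. It rose by 1.87 ± 0.25, to a mean of 11.00 ± 0.18, which is 3.66-fold higher than untreated (limma, adjusted p 0.0282). Nfil3 fell by 0.86 ± 0.11, to 6.52 ± 0.21, or 1.82-fold (adjusted p 0.028). These 2 of 6 stand beside 0.0822% of all clusters, 6 higher and 19 lower. Hlf differed by 0.85 ± 0.17 (adjusted p 0.108), Tef by 0.79 ± 0.16 (0.132), Bhlhe41 by 0.44 ± 0.16 (0.237) and Bhlhe40 by -0.07 ± 0.23 (0.895). Dbp, Tef and Hlf lay above untreated without overlap and Nfil3 below, 4 of 6 genes against 20.4% of all clusters.

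Both calls were lost when certain arrays were left out. Without any 1 of untreated replicates 2 and 3, spironolactone replicates 1 and 2, eplerenone replicate 1 or the 3 prednisolone replicates, the adjusted p was 0.0519 to 0.14 for Dbp and 0.0519 to 0.132 for Nfil3, with differences of 1.69 to 1.87 and -0.89 to -0.75. In those fits 0% to 0.0362% of all clusters passed. With replicate number as a block the limma adjusted p was 0.0641 for Dbp and 0.0662 for Nfil3. Without untreated replicate 1, 5 of the 6 genes passed, namely Dbp, Nfil3, Tef (0.98, adjusted p 0.0137), Hlf (1.04, 0.0119) and Bhlhe41 (0.66, 0.0244), all by limma, and the share of all clusters that passed rose as well, to 1.76%. Without spironolactone replicate 3, Hlf passed too (0.98, adjusted p 0.0443), beside 0.543% of all clusters. Measured from untreated replicate 1 alone, the difference was 1.34 for Dbp and -0.87 for Nfil3.

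With eplerenone plus lisinopril no gene of the 6 passed against untreated (limma). Before adjustment 4 of the 6 had a p under 0.05, beside 4087 of the 30412 clusters. Of all clusters 0.0296% passed, 2 higher and 7 lower. Dbp differed by 1.22 ± 0.25, at a mean of 10.35 ± 0.47 (adjusted p 0.146), and Tef by 0.69 ± 0.16 (0.174), both above untreated without overlap. Nfil3 differed by -0.71 ± 0.11, at 6.67 ± 0.093 (0.0783), below untreated without overlap. Those 3 genes compare with 16.9% of all clusters. Bhlhe41 differed by 0.35 ± 0.16 (0.371), Bhlhe40 by -0.21 ± 0.23 (0.714) and Hlf by 0.0069 ± 0.17 (0.99). Leaving out untreated replicate 1 brought Dbp (1.49, adjusted p 0.0186), Tef (0.87, 0.023), Nfil3 (-0.70, 0.0335) and Bhlhe41 (0.56, 0.0427) past the threshold, and leaving out spironolactone replicate 3, whose array enters only through the shared spread, brought Nfil3 past it (0.0487). In those fits 1.42% and 0.0559% of all clusters passed.

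**Figure D2:**
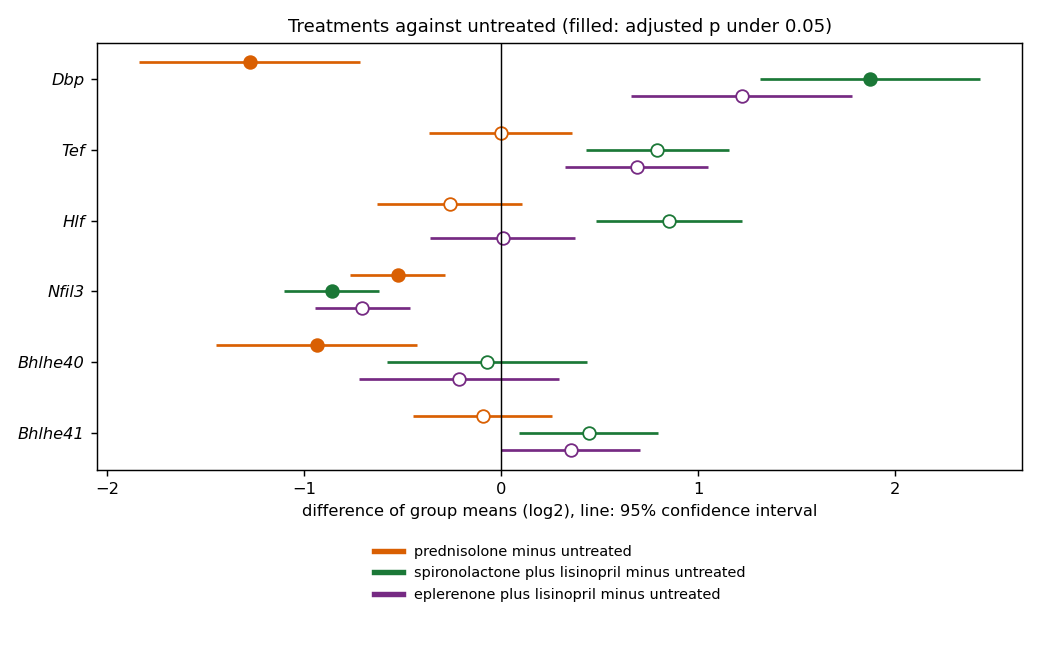
Log2 difference of each treatment group from untreated (horizontal axis), with the 95% confidence interval from limma, for the 6 genes (vertical axis). Dbp lies at -1.28 with prednisolone and at 1.87 with spironolactone plus lisinopril, and Nfil3 is below 0 with all 3 treatments (-0.53, -0.86 and -0.71).

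For Dbp the widest differences were between the antagonist combinations and prednisolone. It was higher with spironolactone plus lisinopril by 3.15 ± 0.25, or 8.87-fold (limma, adjusted p 0.000686, the third smallest of all clusters). It was higher with eplerenone plus lisinopril by 2.50 ± 0.25, or 5.65-fold (adjusted p 0.0039). Both calls held without each of the 12 arrays in turn. Hlf was higher with spironolactone plus lisinopril than with prednisolone by 1.11 ± 0.17, or 2.16-fold (adjusted p 0.0208), and its call was lost, at 0.0624 to 0.098, without spironolactone replicate 1 or 2 or prednisolone replicate 1 or 2. In those fits 0.0756% to 0.181% of all clusters passed in this comparison. Hlf is dim: its prednisolone mean of 5.05 lies below the median of every array (5.70 to 5.81), and no detection values were used here. Against prednisolone, 2 of 6 genes passed with spironolactone plus lisinopril, where 0.822% of clusters did, and 1 of 6 with eplerenone plus lisinopril, where 0.608% did.

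The other differences from prednisolone did not pass. With spironolactone plus lisinopril they were 0.79 ± 0.16 for Tef (limma, adjusted p 0.0557), 0.86 ± 0.23 for Bhlhe40 (0.101), 0.54 ± 0.16 for Bhlhe41 (0.134) and -0.33 ± 0.11 for Nfil3 (0.169). With eplerenone plus lisinopril they were 0.69 ± 0.16 for Tef (0.107), 0.72 ± 0.23 for Bhlhe40 (0.211), 0.45 ± 0.16 for Bhlhe41 (0.272), 0.27 ± 0.17 for Hlf (0.578) and -0.18 ± 0.11 for Nfil3 (0.567). Tef stood closest to the threshold. Without untreated replicate 1 it passed for both combinations (0.0266 and 0.0423), and Bhlhe41 passed for spironolactone plus lisinopril (0.0411), where 1.08% of all clusters passed for spironolactone and 0.868% for eplerenone. Arrays did not overlap in 6 of 6 genes for spironolactone plus lisinopril, against 24% of all clusters, and in 5 of 6 for eplerenone plus lisinopril, against 19.9%.

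Spironolactone and eplerenone differ in structure: eplerenone carries an epoxide and a methyl ester in place of the acetylthio group of spironolactone. Their doses differed here, 100 against 200 mg/kg per day, so the values stand side by side and no difference can be assigned to the compounds at a matched dose. Over the 6 genes of this 1 pair of treatments no difference passed in limma, all with an adjusted p of 0.998. No cluster of the 30412 did (0%), while 1365 clusters and 2 of the 6 genes had an unadjusted p under 0.05. Spironolactone minus eplerenone was 0.84 for Hlf (95% interval 0.47 to 1.21) and 0.65 for Dbp (0.09 to 1.21), both without overlap of the arrays, against 9.68% of all clusters. The intervals ran from -0.26 to 0.47 for Tef, from -0.40 to 0.09 for Nfil3, from -0.37 to 0.65 for Bhlhe40 and from -0.26 to 0.44 for Bhlhe41. All 4 of these intervals include 0, which does not show that the treatments act alike.

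**Figure D3:**
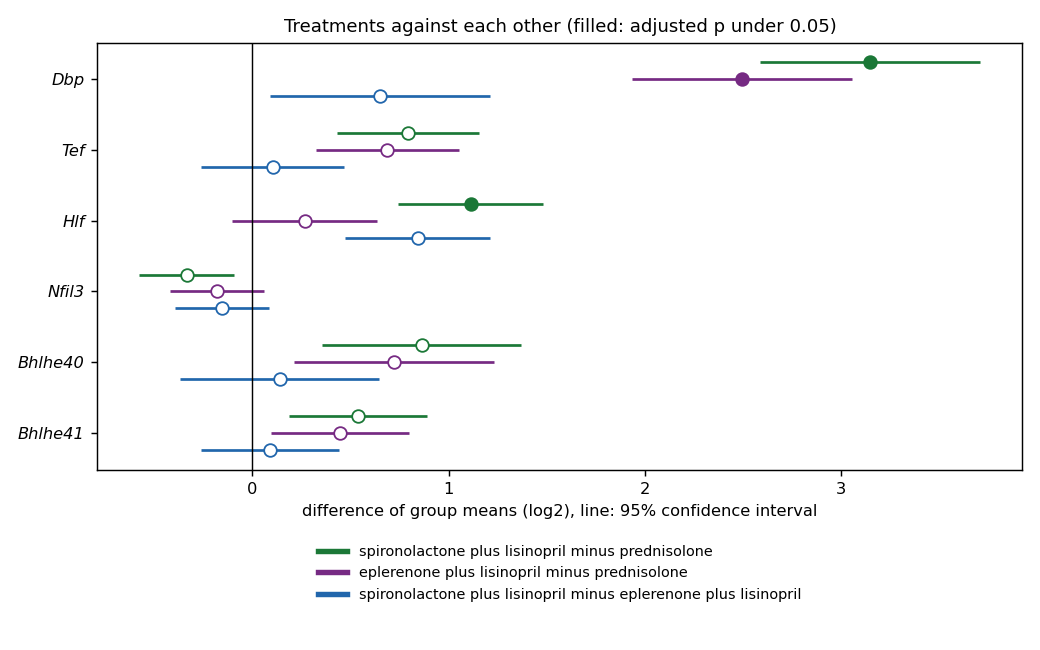
Log2 difference between treatment groups (horizontal axis), with the 95% confidence interval from limma, for the 6 genes (vertical axis). Dbp differs from prednisolone by 3.15 and 2.50 in the spironolactone and eplerenone combinations, and the spironolactone minus eplerenone differences run from -0.15 (Nfil3) to 0.84 (Hlf).

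The genes of the loop that drives these factors were read on the same arrays. Arntl, the activator, read 8.68, 8.92 and 8.93 untreated, 7.74, 7.71 and 8.55 with spironolactone plus lisinopril, 8.27, 8.43 and 8.88 with eplerenone plus lisinopril, and 10.41, 10.42 and 10.42 with prednisolone. The order of its groups was the reverse of that of Dbp, with overlap only between untreated and eplerenone and between the 2 combinations. Per3, a repressor, read 7.38, 6.69 and 6.95 untreated, 8.28, 8.37 and 8.12 with spironolactone plus lisinopril, 7.59, 7.87 and 7.35 with eplerenone plus lisinopril, and 6.15, 6.16 and 6.19 with prednisolone. Its groups fell in the order of those of Dbp, with overlap between untreated and eplerenone.

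With prednisolone against untreated, 3 of 6 measured loop activators rose (median of the list 0.36, against -0.01 over all clusters): Arntl by 1.57 ± 0.21 (limma, adjusted p 0.00377), Clock by 0.41 (0.00742) and its relative Npas2 by 1.28 (0.0128). Of 7 measured loop repressors 3 fell and 1 rose (median -0.71). Per1 (-3.37, adjusted p 0.00769), Nr1d2 (-0.93, 0.0285) and Per3 (-0.84, 0.0172) fell, while Nr1d1 rose by 0.98 (0.0135). Of 5 measured genes for turnover of clock proteins 2 fell, the deubiquitinase Usp2 (-1.19, 0.0374) and the kinase Csnk1d (-0.29, 0.0444).

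With spironolactone plus lisinopril against untreated, 2 of the 7 repressors rose, Per3 by 1.25 (limma, adjusted p 0.0282) and Nr1d1 by 1.28 (0.0384), with a list median of 0.76. No activator passed, and Npas2 had the smallest p (-1.01, adjusted p 0.151). With eplerenone plus lisinopril none of the 13 loop genes passed against untreated, with the smallest p for Nr1d1 among the repressors (1.10, adjusted p 0.0949), followed by Per3 (0.60, 0.224), and for Clock among the activators (-0.10, 0.536). Against prednisolone, Arntl, Clock and Npas2 were lower in both combinations, Arntl at -2.42 with spironolactone and -1.89 with eplerenone (limma, adjusted p 0.00128 and 0.00479). Per3 and Nr1d2 were higher in both, Per3 by 2.09 and 1.44 (0.000686 and 0.00548). Per2 was also higher with spironolactone (1.62, 0.0332) and Per1 with eplerenone (3.17, 0.0349). Per1 did not pass with spironolactone, though its arrays there (8.13, 8.64 and 9.85) all lay above those with prednisolone (6.19, 6.29 and 5.95). Per2 with eplerenone differed by 0.71 (0.32). These comparisons share the prednisolone arrays, as those above share the untreated ones.

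**Figure D4:**
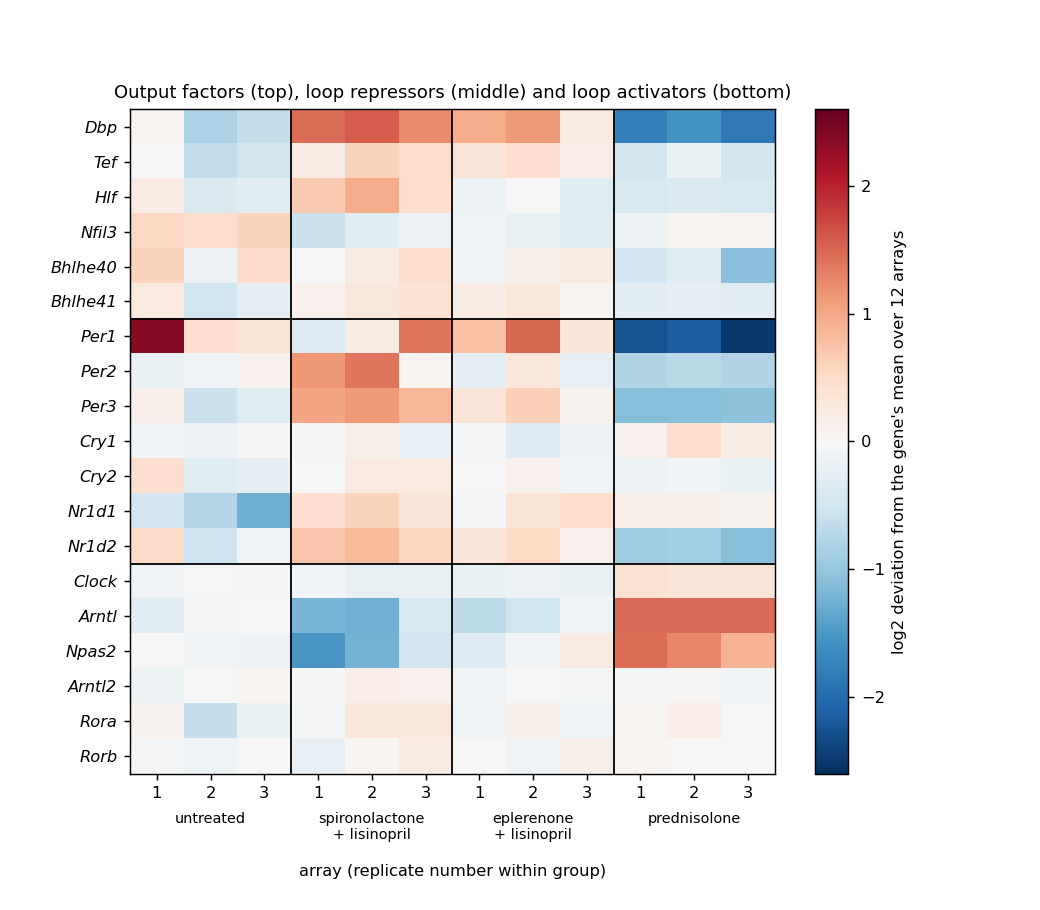
Deviation of each gene's log2 signal from its mean over the 12 arrays (colour scale), for the 6 output factors, 7 loop repressors and 6 loop activators (rows) on each array (columns, by group and replicate number). With prednisolone Dbp and Per3 are low and Arntl is high (10.41 to 10.42), and with spironolactone plus lisinopril Dbp and Per3 are high.

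Genes known elsewhere as D-box targets are acted on by Dbp, Tef, Hlf and Nfil3. Of 9 measured, 1 passed with prednisolone against untreated, Pdxk, which encodes pyridoxal kinase (fell by 0.61 ± 0.13, limma adjusted p 0.0234), and the list median was -0.08. None passed with spironolactone plus lisinopril (median -0.05, the smallest p for the taurine transporter Slc6a6 at 0.30, adjusted p 0.322) or with eplerenone plus lisinopril (median -0.04, Tshb at -0.38, 0.287). Most of these targets were described in liver. Of 10 genes timed by the clock in muscle, 2 rose with prednisolone, the glucose transporter Slc2a4 by 1.34 (0.00405) and Lpin1, a regulator of lipid synthesis, by 0.74 (0.0132). None passed with either combination against untreated. Lpin1 was lower than with prednisolone in both, at -0.85 (0.0273) and -1.25 (0.00479), and Pdk4, which restrains glucose oxidation, was lower with spironolactone plus lisinopril (-2.82, 0.0345).

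Relatives outside the clock were counted as well. Of 18 other bZIP factors, 4 fell with prednisolone against untreated: Cebpd (-3.10, limma adjusted p 0.00363), Cebpb (-0.76, 0.0123), Crem (-0.95, 0.0172) and Xbp1 (-0.79, 0.0234). Of 8 other helix-loop-helix repressors, Id1 (-1.60, 0.0122) and Id2 (-1.37, 0.0128) fell. No gene of either list passed with the combinations against untreated. Of 12 genes known as induced by glucocorticoids, 4 fell and 1 rose with prednisolone against untreated (median -0.45). Those that fell were Cebpd and Per1, given above, Tsc22d3 (-1.81, limma adjusted p 0.00883) and Ddit4 (-2.99, 0.0269). The muscle ubiquitin ligase Fbxo32 rose by 1.52 (limma adjusted p 0.0313). None of the 12 passed with the combinations against untreated, at list medians of -0.74 with spironolactone and -0.65 with eplerenone.

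Other cell types moved with the same groups. Nfil3 and Bhlhe40 are also expressed in immune cells, and in whole muscle fewer cells of a type and less RNA per cell cannot be told apart. With prednisolone against untreated, 5 of 12 macrophage markers fell (median -0.86), as did 3 of 12 neutrophil markers (median -1.48), 2 of 12 T and NK cell markers (median -0.39), 4 of 7 fibroblast markers (median -0.57) and 1 of 8 endothelial markers (median -0.49). Thy1 is on both the T and NK cell list and the fibroblast list, read from the same cluster. Of 17 immediate-early genes, 6 fell with prednisolone (median -1.33). The smallest p was that of Zfp36, a regulator of mRNA decay (-2.35, limma adjusted p 0.00401). With spironolactone plus lisinopril 1 of the 17 fell (median -0.94), and with eplerenone plus lisinopril none passed (median -0.77). With each combination the macrophage marker Cd14 was the 1 of 12 that fell (-1.76, limma adjusted p 0.028, and -1.79, 0.0235), and no neutrophil marker passed (medians -1.34 and -1.46). No adipocyte marker of 7 passed in any of the 3 comparisons with untreated. The list medians were 1.19 with prednisolone, 1.57 with spironolactone plus lisinopril and 0.54 with eplerenone plus lisinopril. Array means of this list were 8.63 to 9.26 untreated, 9.14 to 11.84 with spironolactone, 9.06 to 10.04 with eplerenone and 9.20 to 11.18 with prednisolone. The highest was spironolactone replicate 3, and the part of this signal in the fits without that array was not tested. Against prednisolone, 4 of 7 fibroblast markers (Col1a1, Col1a2, Col3a1 and Thy1) were higher in both combinations (medians 0.55 with spironolactone and 0.74 with eplerenone), and their part in the differences of Dbp and Hlf was not tested.

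The level of each list is given here as the mean of its genes' log2 signals per array, in which dim and bright genes count alike. That of the neutrophil list was 6.44 to 8.52 untreated, 5.88 to 6.46 with spironolactone plus lisinopril, 5.72 to 6.02 with eplerenone plus lisinopril and 6.04 to 6.24 with prednisolone. That of the macrophage list was 12.45 to 13.20 untreated, 11.85 to 12.44 with eplerenone, 12.02 to 12.32 with spironolactone and 11.70 to 12.13 with prednisolone. Nfil3 was above all treated arrays on every untreated array, including untreated replicate 1 (7.39), where the neutrophil list was at its untreated low of 6.44. On that array the macrophage list was 12.45 by its mean, just above the 12.44 of eplerenone replicate 3, but lower than it by its median deviation (0.14 against 0.30). The mean log2 signal of the immediate-early list was 8.33 to 9.06 untreated and 7.22 to 8.28 with spironolactone. It was 7.68 to 7.94 with eplerenone and 7.16 to 7.38 with prednisolone. Like Nfil3, this list was above all treated arrays on every untreated array. The part of these cells and of the immediate-early genes in the differences of Nfil3 and Bhlhe40 was not tested. The label of the tissue was checked against 12 skeletal muscle markers, which averaged 17.67 to 18.16. Des alone of them passed with prednisolone against untreated (a rise of 0.52), at a list median of 0.30. The prednisolone arrays averaged 17.99 to 18.16, above every other array (up to 17.96). Acta1 and Myh4 carried the same values as each other on every array, near the highest value deposited (19.93), so they say little about a rise.

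**Figure D5:**
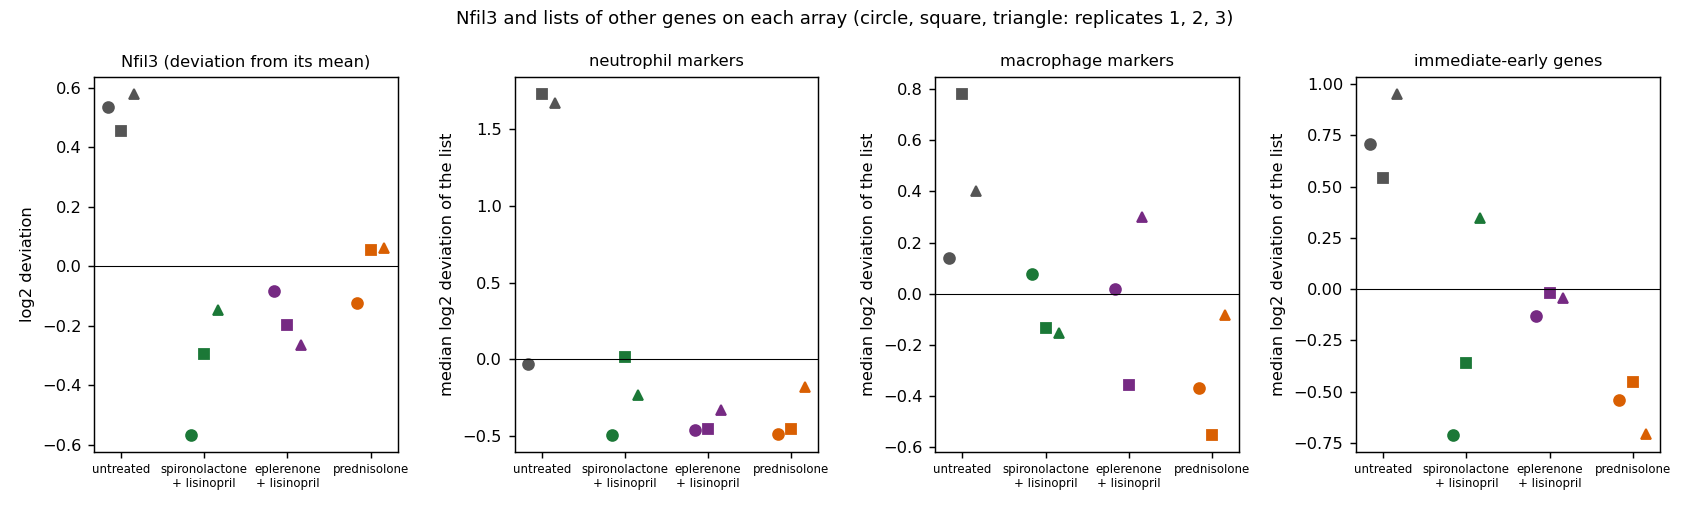
Log2 deviation of Nfil3 from its mean over 12 arrays (first panel) and the median log2 deviation of the neutrophil, macrophage and immediate-early lists (other panels) on each array, by group. Nfil3 is high on all 3 untreated arrays, while the neutrophil median is -0.03 on untreated replicate 1 and 1.73 and 1.67 on the other untreated arrays. The immediate-early median is 0.54 to 0.95 on the untreated arrays and at most 0.35 on the treated ones.

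The genes most like each factor were found by Pearson r of the log2 signals over the 12 arrays, among 19925 clusters. Since the arrays fall into 4 groups, r follows the group means as well as the mice, and it is given as a description. Closest to Dbp were the loop genes Per3 (r 0.990, Spearman rho 0.972) and Nr1d2 (0.968), then Fbxo22 (0.945), and Arntl was lowest of all at -0.942. Bhlhe41 was among the 3 closest to Tef (r 0.944, rho 0.951), between Sesn3 (0.952) and Nfic (0.944). No gene of the loop lists was among the 3 nearest of the other 5. For Hlf these were Srp54c (0.964), Ttc17 (0.942) and Ppp6c (0.925), and for Nfil3 they were Fer1l5 (0.932), Olfr47 (0.918) and Dnah6 (0.906). For Bhlhe40 they were Rex2 (0.937), Pde10a (0.914) and the endothelial marker Cdh5 (0.903), and for Bhlhe41 they were Chst15 (0.970), Arhgap32 (0.959) and Afap1 (0.958). The lowest r was that of Wdr88 for Tef (-0.951), Zbed3 for Hlf (-0.905), Pdxdc1 for Nfil3 (-0.936), Rufy1 for Bhlhe40 (-0.904) and Obox5 for Bhlhe41 (-0.929). Some of these genes varied little. The SD over 12 arrays was 0.090 for Fer1l5, 0.083 for Pde10a and 0.060 for Pdxdc1, against 0.83 for Per3 and a median residual SD of 0.163. Spearman rho was weaker than r for Olfr47 (0.783), Zbed3 (-0.783) and Rufy1 (-0.790), and stronger for Pde10a (0.965) and Obox5 (-0.986).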

How the data were processed

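The log2 signals deposited were produced by RMA, and the submitters' processing notes name Affymetrix Expression Console and Transcriptome Analysis Console as the programs. Program versions and genome build: not given in the sources used here. Between 1.27% and 1.34% of clusters per array exceed 16, more than a 16-bit scanner can give, which shows a rescaling those notes leave out. Folds are on that deposited scale.

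Of 65587 clusters, 30412 have exactly 1 symbol (827 symbols updated by gene ID), 2118 several and 33057 none. Group means of all 12 arrays were fitted with limma 3.58.1 (R 4.3.3, with version 1.17.8 of data.table; 8 residual and 2.94 prior degrees of freedom; eBayes without trend), with Benjamini-Hochberg adjustment over the 30412 clusters, a threshold of 0.05 and no filter on dim clusters. The fit was tested on simulated data. Exact permutation of 3 against 3 arrays gives no p below 0.1. The number of arrays limits the precision. The 6 genes and all lists were chosen with earlier results of these data known. Lists were named by their genes past the threshold (up to 4, smallest p first) or else by the smallest p, each gene by its brightest cluster. Listed genes without a cluster of 1 symbol were not analysed here. Likeness left out predicted genes and small RNAs.

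Alternatives were other scalings, filters and variance models, a replicate block, single arrays left out, untreated replicate 1 alone, and the fold of 2 named by the study design.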

Additional observations from a re-analysis of the deposited data

How the results depend on the processing

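Precision was limited by 3 arrays per group, and most calls here sat near the threshold. In the order prednisolone, spironolactone and eplerenone combination against untreated, then spironolactone and eplerenone combination against prednisolone, 3, 2, 0, 2 and 1 of the 6 genes passed, with 4 in the F-test and 0 between the combinations. Leaving out 1 array at a time gave 0 to 3, 0 to 5, 0 to 4, 1 to 4 and 1 to 2. It gave 1 to 5 in the F-test and 0 between the combinations. The share of all clusters that passed moved too, in the same order 1.5% to 8.69%, 0% to 1.76%, 0% to 1.42%, 0.0756% to 1.08% and 0.0888% to 0.868%. That share was not computed for the F-test or the alternatives below, whose counts are of the 6 genes alone. Without moderation of the variances, 0 passed against untreated with prednisolone and with spironolactone, 0 and 0 in the comparisons with prednisolone, and 2 in the F-test. Untreated replicate 1 alone as the control, a single array assumed to vary like the other groups, gave 1 for prednisolone, 0 for spironolactone and 2 in the F-test, with less power by construction. Fitting only the arrays of the groups compared gave 1 for prednisolone and 0 for spironolactone against untreated, and 1 for spironolactone against prednisolone. Adjusting over all clusters gave 0 for spironolactone against untreated. The replicate block also gave 0 there. A fold of 2 with no test gave 1 each for prednisolone, spironolactone and eplerenone against untreated. The higher Dbp with spironolactone and with eplerenone than with prednisolone passed in 21 of 22 alternatives each, all but the unmoderated test. Against untreated, Dbp and Nfil3 with spironolactone passed in 10 of 23 alternatives each, and with prednisolone Dbp passed in 19, Nfil3 in 18 and Bhlhe40 in 10 of 23. Tef with spironolactone against prednisolone, just short of the threshold, passed in 4 of 22. The difference of each of these kept its direction in every alternative run.

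Signs turned for 5 differences, none of which passed as reported above, and the cause was not tested. Tef with prednisolone against untreated was 0.053 with array weights, 0.013 with quantile normalization, and -0.137 to 0.183 when single arrays were left out. Hlf with eplerenone was -0.36 against untreated replicate 1 alone and -0.103 to 0.191 with single arrays left out. Bhlhe41 with eplerenone was -0.071 against untreated replicate 1 alone, Bhlhe41 with prednisolone was -0.266 to 0.117 and Bhlhe40 with spironolactone -0.303 to 0.063 with single arrays left out. Same-numbered arrays did not deviate together (18 pairs, r -0.237 to 0.157), so the replicate block uses numbers only. Each gene has 1 cluster, so another cluster of the same symbol could not be run.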
